A study of Homo sapiens with 4 samples.

Results

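Accessible chromatin was examined at 9 genes that govern the G1 phase of the cell cycle in HepG2, a line from a human hepatocellular carcinoma, with and without tazemetostat (EPZ-6438), an inhibitor of the histone methyltransferase EZH2. The genes were CDKN1A, CDKN1B, CDKN2A, CDKN2B, CDKN2C, CDKN2D, CCND1, CCNE1 and RB1, taken by their names and function, with no value in the rule, from 20007 protein-coding genes of GENCODE release 44. Each was read over its gene body with 10 kb on either side, in hg38. Peaks that shared at least 1 bp between libraries were joined, which gave 78220 regions, and 42 of them lay in these 9 windows. CDKN2A and CDKN2B are neighbours and share 2 of the 42.

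The assay was ATAC-seq, in which a transposase inserts sequencing adapters into open chromatin. The control libraries (Ctrl 1 and Ctrl 2) are labelled Untreated, and the others (Taze 1 and Taze 2) Tazemetostat treatment, at 5 µM for 48 h, with the compound dissolved in DMSO. Whether the controls received DMSO is not given in the sources used here. All 4 libraries came from HepG2 cells labelled WT, a single tumour line, with 50000 cells each and a DNase step before lysis. Nothing in the labels says that replicates were separate cultures, so p-values measure only the spread between these libraries, which may be technical.

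The inhibitors of the INK4 family, encoded by CDKN2A to CDKN2D, bind the kinases CDK4 and CDK6, whereas p21 and p27, encoded by CDKN1A and CDKN1B, act mainly on CDK2 complexes. Cyclin D1 and cyclin E1 activate these kinases, which phosphorylate the retinoblastoma protein RB1 and release E2F factors for entry into S phase. The CDKN2A and CDKN2B locus is a textbook target of Polycomb repression, in which EZH2 methylates histone H3 at lysine 27.

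Depth was 17.2 and 23.8 M mapped tags in Ctrl 1 and Ctrl 2 and 19.8 and 26.6 M in Taze 1 and Taze 2. Peaks numbered 26133 and 34768 in the controls and 55313 and 54157 under tazemetostat. The share of tags in peaks was 4.32 and 5.69% against 11.51 and 9.81%. Ctrl 1 stood apart with the fewest peaks. The fragment length set for peak calling was 200 bp in both controls and 144 bp in both treated libraries, so its part cannot be told apart from that of treatment. Among hepatocyte and HepG2 markers, APOA1, SERPINA1, TTR and HNF4A had a peak at the start in all 4 libraries, and ALB, AFP, APOA2 and FOXA2 had none. None of 6 markers of other cell types (PTPRC, CD3E, PECAM1, COL1A1, KRT5 and NEUROD1) had a peak at the start.

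The normalised tag count of a peak is the number of tags in it per 10 M mapped tags. In the windows of the 9 genes it ranged from 5.88 to 45.4, with a median of 15.1, and rested on 13 to 107 tags. A count of 13 has an exact Poisson 95% interval of 6.92 to 22.2, which covers counting error only. A peak also had to reach 4.0 times the tag density of the surrounding 10 kb. A library without a peak therefore has no value, and absence of a peak is not a measured absence of tags. In bulk cells, more cells with an open site and more open sites per cell cannot be told apart.

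Of the 42 regions, 8 had a peak in Taze 1 and Taze 2 but in neither control, termed tazemetostat-only, and 0 had the reverse pattern, termed control-only. Over all 78220 regions, 13.7% were tazemetostat-only and 0.44% were control-only. A further 7 regions were shared by all 4 libraries, as were 20.5% of all regions, and 27 had another pattern, as had 65.3% of all. Of those 27, 10 were called in every library but Ctrl 1. Ctrl 1 had a peak in 7 of the 42 regions and Ctrl 2 in 23. Taze 1 had a peak in 37 and Taze 2 in 28. Over the whole libraries the peaks numbered 26133, 34768, 55313 and 54157 in the same order. These totals are peaks and not shares of the 78220 regions. Such shares are not given here per library or for the pattern that lacks Ctrl 1 alone. Per 1 M tags in peaks, the windows of these genes held 262.6 tags in Ctrl 1 and 561.2 in Ctrl 2. Taze 1 held 645.9 and Taze 2 held 543.8. By that measure Ctrl 1 was low at these genes beyond its own total.

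A tazemetostat-only region lay in the windows of 7 of the 9 genes, all but CDKN2D and CCNE1. The background was 32.5% of all coding genes, and 38.4% of those with a peak at the canonical start in at least 1 library, as all 9 genes had. Of the named hepatocyte markers ALB, TTR and HNF4A had one, and of the markers of other cell types 4 of 6 (CD3E, COL1A1, NEUROD1 and PECAM1), whose starts had no peak. A control-only region lay in the window of 0 of the 9 genes, with a background of 1.34%. The count of 7 fell to 3 (CDKN1A, CDKN2C and CCND1) when an equal number of peaks was taken from each library. It fell to 2 (CDKN1B and CDKN2A) when peaks had to reach 8 times the local density. The background shares were taken with all peaks, so they cannot be set beside these lower counts. Window lengths ran from 22.6 kb for CDKN2D to 316.0 kb for RB1, with a median of 47.5 kb over all coding genes.

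CDKN2A encodes p16 and, from an upstream first exon, the MDM2 inhibitor ARF. It lies on the minus strand of chromosome 9, from 21967752 to 21995301, and CDKN2B, which encodes p15, lies upstream from 22002903 to 22009305. Ctrl 1 had no peak in either window, and the called peaks were low. The 13 peak values of both windows had a median normalised tag count of 9.07, from 6.02 to 14.6.

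The p16 start, within the region chr9:21974716-21975181, had no peak in Ctrl 1, 7.14 in Ctrl 2, 14.1 in Taze 1 and no peak in Taze 2. The ARF start, within chr9:21994202-21994794, had the same order of libraries, with 6.3 in Ctrl 2 and 14.6 in Taze 1. Both starts were thus open by peak call in 1 library of each group. The ARF region also covers the start of the antisense RNA CDKN2B-AS1, and the assay does not show to which gene its accessibility belongs.

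The locus held 3 tazemetostat-only regions. The first, chr9:21965424-21965886, lay 9202 bp beyond the p16 start, past the 3′ end of CDKN2A, with 12.1 and 12.4 in Taze 1 and Taze 2 and a local fold of 11.94 and 8.69. The second, chr9:21995171-21995892, lay upstream of the ARF start over another annotated CDKN2A start, with 10.6 and 6.78. The third, chr9:22008588-22009026, lay over a coding exon of CDKN2B, with 9.07 and 6.02 from 18 and 16 tags. The tag threshold for a putative peak, scaled to 10 M mapped tags, was 8.14 in Ctrl 1, 6.72 in Ctrl 2, 7.05 in Taze 1 and 6.02 in Taze 2, and a few listed values lay just below it. The Taze 2 value of the second region was near the Ctrl 2 threshold and that of the third below it, so the lists cannot show whether the controls held a like level. The first region was above all of the thresholds, and it was the tazemetostat-only region of the locus with the highest local fold.

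The CDKN2B start, within chr9:22009104-22009607, had no peak in Ctrl 1. Ctrl 2 had 7.98, Taze 1 had 7.56 and Taze 2 had 10.2. The value of Ctrl 2 lay between those of the treated libraries.

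**Figure D1:**
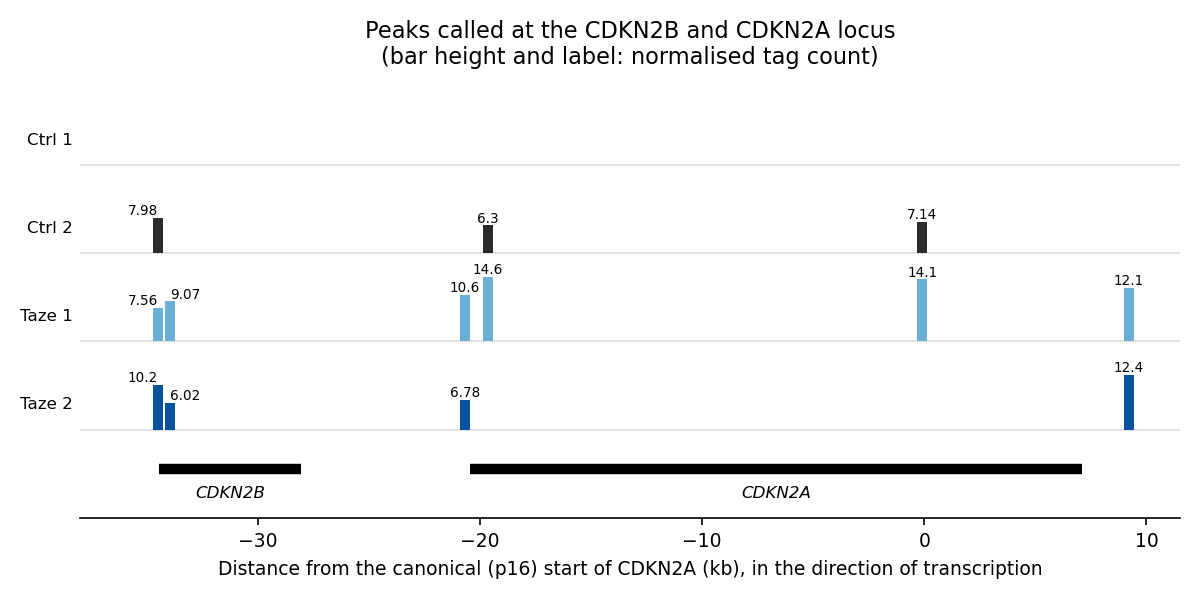
Peaks of each library along the CDKN2B and CDKN2A locus, with the distance from the p16 start in kb on the horizontal axis and 1 row per library. Each bar is a called peak with its normalised tag count, and black bars are the gene bodies. Ctrl 1 has no peak, and the peaks at both CDKN2A starts appear in Ctrl 2 and Taze 1.

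Sequences are shown for the p16 and CDKN2B starts, for the upstream CDKN2A start in the second tazemetostat-only region and for the first tazemetostat-only region. These sequences are alike in CpG content but differ in the letters of the SP/KLF motif. They are written 5′ to 3′, with GGGCGG or its complement CCGCCC in capitals. The promoters are from RefSeq (GRCh38.p14), as the 250 bases before the start on the minus strand, and the distal window is the central 300 bases of the region in hg38 on the plus strand. Of the 9 genes, 8 matched the RefSeq promoter table, with 11 entries in all, with CCND1 not matched and the RB1 entry at an internal start.
CDKN2A p16 promoter, chr9:21974858-21975107: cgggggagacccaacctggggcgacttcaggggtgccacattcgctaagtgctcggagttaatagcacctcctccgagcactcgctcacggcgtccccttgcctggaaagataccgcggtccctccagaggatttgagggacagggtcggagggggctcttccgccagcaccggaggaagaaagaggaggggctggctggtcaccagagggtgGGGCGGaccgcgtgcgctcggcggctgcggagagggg
CDKN2A upstream promoter, chr9:21995325-21995574, in the second tazemetostat-only region: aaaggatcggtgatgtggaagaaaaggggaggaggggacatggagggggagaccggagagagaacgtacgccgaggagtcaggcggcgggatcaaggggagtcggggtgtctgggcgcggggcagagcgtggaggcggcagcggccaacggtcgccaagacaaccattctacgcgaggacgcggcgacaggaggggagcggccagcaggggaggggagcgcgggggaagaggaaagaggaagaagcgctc
CDKN2B promoter, chr9:22009306-22009555: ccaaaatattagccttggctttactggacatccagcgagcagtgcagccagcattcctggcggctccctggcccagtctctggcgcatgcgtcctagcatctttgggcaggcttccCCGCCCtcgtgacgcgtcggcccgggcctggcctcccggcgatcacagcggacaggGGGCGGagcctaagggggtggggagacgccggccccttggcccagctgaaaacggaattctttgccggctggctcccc
CDKN2A distal tazemetostat-only window, chr9:21965506-21965805: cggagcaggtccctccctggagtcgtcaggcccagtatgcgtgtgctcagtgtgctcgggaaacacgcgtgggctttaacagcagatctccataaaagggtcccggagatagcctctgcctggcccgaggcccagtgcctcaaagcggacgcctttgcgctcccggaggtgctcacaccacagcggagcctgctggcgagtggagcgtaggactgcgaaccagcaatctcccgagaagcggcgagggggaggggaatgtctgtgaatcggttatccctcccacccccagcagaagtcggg
The p16 promoter held 20 CpG dinucleotides, the upstream CDKN2A promoter 24 and the CDKN2B promoter 18, against a median of 11 over 35114 RefSeq promoters. The distal window held 21 CpG in 300 bases, and the tazemetostat-only window in the CDKN2B exon held 38. The SP/KLF letters occurred once in the p16 promoter, 2 times in the CDKN2B promoter and 0 times in the upstream CDKN2A promoter. They were present in 42.6% of all RefSeq promoters.

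CDKN2C encodes p18 and CDKN2D encodes p19, the other INK4 inhibitors. Both had a peak at the start in every library, unlike CDKN2A and CDKN2B. The CDKN2C start, chr1:50969641-50970342, had 11.1 in Ctrl 1, 15.1 in Ctrl 2, 18.1 in Taze 1 and 13.9 in Taze 2. The groups overlapped there. The CDKN2D start, chr19:10568821-10569440, had 19.2, 27.7, 40.3 and 38.0 in the same order, so that both treated libraries lay above both controls.

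The CDKN2C window held 5 further regions. At the boundary with FAF1, chr1:50959826-50960745, values were 21.0 in Ctrl 2 and 40.8 and 31.6 under tazemetostat. At another CDKN2C start, chr1:50968015-50968856, they were 18.9, 31.7 and 22.2. Past the 3′ end, chr1:50976838-50978522 had 7.56 in Ctrl 2 against 30.2 and 23.0 under tazemetostat, with peaks of 387 bp against 1156 and 982 bp. In each of these 3 regions Ctrl 1 had no peak and the treated libraries lay above Ctrl 2. The tazemetostat-only region chr1:50978701-50979118, also past the 3′ end, had 7.56 and 11.7, and a last one was called in Taze 1 alone, at 8.06. The CDKN2D window held 1 other region, within AP1M2, at 14.6 in Taze 1 alone.

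The CDKN2D promoter is shown because its start had the highest tag counts among the inhibitors with a peak in every library. It held 33 CpG and the SP/KLF letters 2 times, in capitals, on the minus strand.
CDKN2D promoter, chr19:10568980-10569229: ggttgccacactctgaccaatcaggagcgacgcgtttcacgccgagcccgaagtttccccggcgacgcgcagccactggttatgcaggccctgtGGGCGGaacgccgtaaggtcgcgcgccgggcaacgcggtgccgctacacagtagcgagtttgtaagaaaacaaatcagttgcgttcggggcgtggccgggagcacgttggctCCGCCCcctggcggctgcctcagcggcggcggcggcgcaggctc

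CDKN1A encodes p21, the main inhibitor induced by p53. It lies on the plus strand of chromosome 6, from 36676460 to 36687337. Its canonical start, within chr6:36678376-36678844, was called in Taze 1 alone, at 33.3 from 66 tags, and the region covers the start of the RNA gene DINOL as well. A tazemetostat-only region, chr6:36677742-36678144, was centred 771 bp upstream within DINOL, with 22.7 and 20.3. These tag counts were well above the threshold of 8.14 and 6.72 per 10 M in the controls, but the local fold was 4.13 and 4.32 at the tazemetostat-only region and 4.66 at the start, just above the 4.0 required. A control library with a similar tag count and a lower local fold would have no peak.

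The other CDKN1A regions were 11446 bp upstream of the start and 5114 bp downstream in an intron. The first had 13.9 in Ctrl 2 and 21.2 in Taze 1. The intronic region had 16.1 in Taze 1 alone, with a local fold of 4.01. No CDKN1A region was called in Ctrl 1 or in all libraries.

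The start and the region upstream of it are set side by side since they differ in base composition, although they lie within 1 kb of each other. The SP/KLF letters are in capitals, and both are written on the plus strand.
CDKN1A promoter, chr6:36678464-36678713: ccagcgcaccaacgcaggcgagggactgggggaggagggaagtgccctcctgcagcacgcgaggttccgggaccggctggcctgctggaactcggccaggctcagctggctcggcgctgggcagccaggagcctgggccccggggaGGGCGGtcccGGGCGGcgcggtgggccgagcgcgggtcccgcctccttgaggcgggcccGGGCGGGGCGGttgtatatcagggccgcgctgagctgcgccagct
CDKN1A upstream tazemetostat-only window, chr6:36677794-36678093: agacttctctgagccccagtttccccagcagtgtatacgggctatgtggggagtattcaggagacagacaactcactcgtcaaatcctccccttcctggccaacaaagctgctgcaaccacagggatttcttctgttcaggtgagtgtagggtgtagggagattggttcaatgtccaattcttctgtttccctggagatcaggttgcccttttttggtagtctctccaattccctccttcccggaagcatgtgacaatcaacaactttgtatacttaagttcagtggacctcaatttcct
The promoter held 27 CpG and the SP/KLF letters 4 times, and the upstream window held 3 CpG and none of those letters.

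CDKN1B encodes p27, which holds cyclin E complexes inactive in resting cells. Its start, chr12:12716853-12717502, was called in every library, with 16.9 and 10.9 in the controls and 21.2 and 21.5 under tazemetostat. The groups did not overlap. A region centred 1061 bp upstream of the start had no peak in Ctrl 1, 7.56 in Ctrl 2 and 10.6 and 9.79 under tazemetostat. At the start of the neighbouring APOLD1, the values were 7.14 in Ctrl 2, 15.1 in Taze 1 and 35.0, over a longer stretch of 1079 bp in 2 peaks, in Taze 2. The tazemetostat-only region chr12:12704536-12704949, centred 12626 bp upstream of the canonical start, had 15.6 and 12.4. Its local fold of 13.38 and 13.68 was the highest among the 8 tazemetostat-only regions.

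The centre of that region is shown on the plus strand. It held 2 CpG in 300 bases, against 27 in the 250 bases of the CDKN1B promoter, and none of the motif letters searched.
CDKN1B distal tazemetostat-only window, chr12:12704593-12704892: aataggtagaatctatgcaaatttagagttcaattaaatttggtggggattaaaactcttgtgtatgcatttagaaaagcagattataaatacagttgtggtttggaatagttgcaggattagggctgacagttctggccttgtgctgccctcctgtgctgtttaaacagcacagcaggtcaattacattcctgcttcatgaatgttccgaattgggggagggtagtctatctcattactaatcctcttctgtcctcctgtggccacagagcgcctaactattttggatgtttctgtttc

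CCND1 encodes cyclin D1, the partner of CDK4 and CDK6. Its start, chr11:69640852-69641339, was called in Taze 1 alone, at 24.7 from 49 tags, with a local fold of 4.07. A tazemetostat-only region, chr11:69638926-69639445, was centred 1971 bp upstream, with 18.6 and 18.4 and a local fold of 4.93 and 4.54. An intronic region had 18.9 in Ctrl 2 and 25.2 in Taze 1. The most accessible sites in the window belonged to the neighbour LTO1 by position. The start of LTO1, chr11:69657977-69658551, had 30.7 in Ctrl 2 and 45.4 and 40.3 under tazemetostat. Within LTO1, chr11:69654808-69655420 was shared, with 29.1 and 31.5 in the controls and 39.8 and 24.8 under tazemetostat, and the groups overlapped. One more region, 6402 bp upstream of CCND1, was called in Taze 1 alone at 8.06.

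The tazemetostat-only window upstream of CCND1 is shown on the plus strand as the CpG-rich example away from a start. It held 27 CpG and no SP/KLF letters.
CCND1 upstream tazemetostat-only window, chr11:69639036-69639335: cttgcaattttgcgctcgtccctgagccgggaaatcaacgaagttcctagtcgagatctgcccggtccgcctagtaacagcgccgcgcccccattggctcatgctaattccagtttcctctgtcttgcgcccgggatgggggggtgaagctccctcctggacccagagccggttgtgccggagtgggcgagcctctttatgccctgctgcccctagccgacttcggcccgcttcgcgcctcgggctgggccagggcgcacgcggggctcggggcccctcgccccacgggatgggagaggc

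CCNE1 encodes cyclin E1, the partner of CDK2 at the end of G1. Its window held 2 regions. The start, chr19:29811314-29812245, had no peak in Ctrl 1, 10.1 in Ctrl 2, 22.7 in Taze 1 and 21.8 in Taze 2. The peak there was 390 bp long in Ctrl 2 and 731 and 768 bp under tazemetostat. A shared region centred 6507 bp upstream had 14.5 and 17.2 in the controls and 26.2 and 20 under tazemetostat, where Ctrl 2 and Taze 2 had 2 peaks each. At both regions the treated libraries lay above every control value.

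RB1 encodes the retinoblastoma protein, the substrate on which these kinases converge. The GENCODE gene body runs from 48303744 to 48599436 on chromosome 13, whereas the canonical transcript ends at 48481890, and 6 of its 12 regions lay beyond that end. The start, chr13:48303222-48304268, had no peak in Ctrl 1, 9.66 in Ctrl 2, 17.6 in Taze 1 and 32.0 in Taze 2. It also covers the start of the divergent RNA gene RB1-DT. The peak spanned 389 bp in Ctrl 2 and 477 and 1046 bp under tazemetostat.

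Both shared regions of the RB1 window lay at the starts of other genes. In an RB1 intron, the start of the nested receptor gene LPAR6, chr13:48412862-48413473, had 7.56 and 9.24 in the controls and 23.7 and 17.3 under tazemetostat. Beyond the canonical end, the start of RCBTB2, chr13:48532298-48533248, had 15.1 and 21.4 against 37.3 and 32.8. The groups did not overlap at either. Of the 7 shared regions at the 9 genes, 5 had both treated values above both controls, against 81.8% of all shared regions, and those at the CDKN2C start and within LTO1 overlapped. The region chr13:48542522-48543105 had no peak in Ctrl 1, 5.88 in Ctrl 2, and 14.1 and 14.3 under tazemetostat. The tazemetostat-only region of the window, chr13:48583741-48584216, lay within LINC00462 beyond the canonical end, with 8.06 and 12.8. Each of the remaining 7 regions was called in a single library, at 6.3 to 9.07, and 2 of these were in Ctrl 2. The one with 9.07, in an RB1 intron in Taze 1, had the highest local fold at the 9 genes, 20.79.

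**Figure D2:**
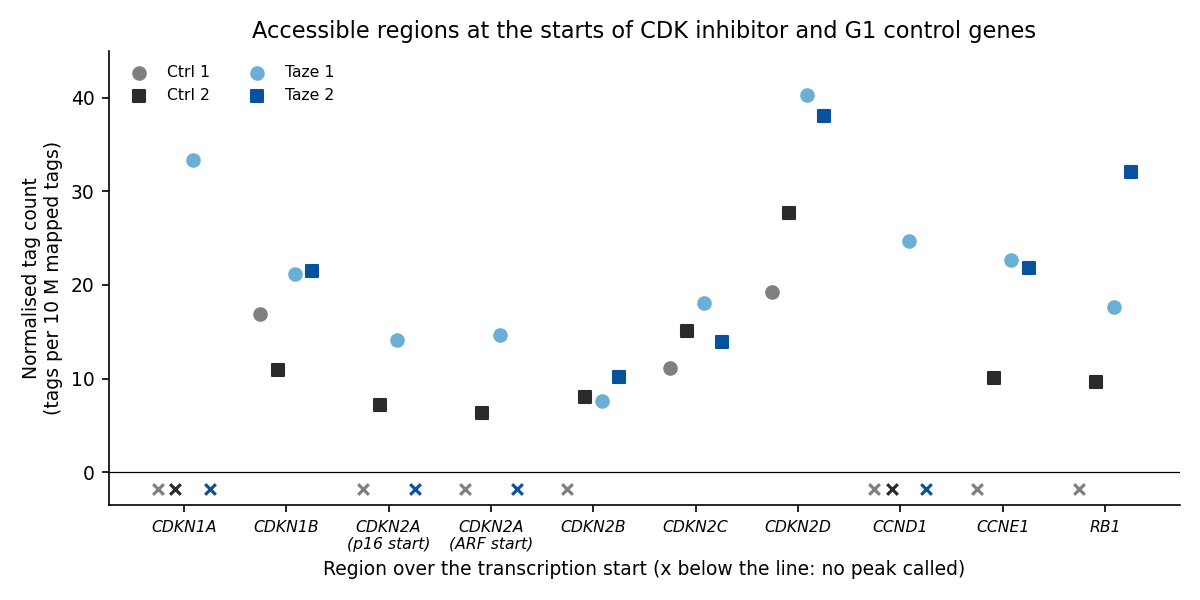
Normalised tag count (tags per 10 M mapped tags) at the region over each transcription start, 1 point per library, with crosses below the line where no peak was called. CDKN1B, CDKN2C and CDKN2D have a peak in all 4 libraries, and CDKN1A and CCND1 in Taze 1 alone.

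In the plot of the starts, the canonical start had a peak for 3 of the 9 genes in Ctrl 1, 7 in Ctrl 2, 9 in Taze 1 and 6 in Taze 2. Over all coding genes the shares were 32.9, 39.0, 47.8 and 45.4%. Taze 2 called fewer of these starts than Ctrl 2, so the starts were not ordered by treatment. The start was called in all 4 libraries for CDKN1B, CDKN2C and CDKN2D (30.0% of coding genes), in all but Ctrl 1 for CDKN2B, CCNE1 and RB1 (7.32%), and in Taze 1 alone for CDKN1A and CCND1 (2.8%).

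The strength of the calls differed between loci in level and local contrast. The 19 peak values of the CDKN1A and CCND1 windows had a median normalised tag count of 24.7 and a median local fold of 4.59, and 13 of them were under 5. The 13 values of the CDKN2A and CDKN2B windows had a lower median tag count of 9.07 but a higher local fold of 7.19, with 1 under 5. The 23 values of the RB1 window had medians of 9.66 and 7.54. Over whole libraries, 31.3 to 36.6% of peaks had a local fold under 5. Peaks at CDKN1A and CCND1 thus stood on a higher surrounding tag density and close to the limit for a call. No test was made, since the values of 1 window share a neighbourhood.

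**Figure D3:**
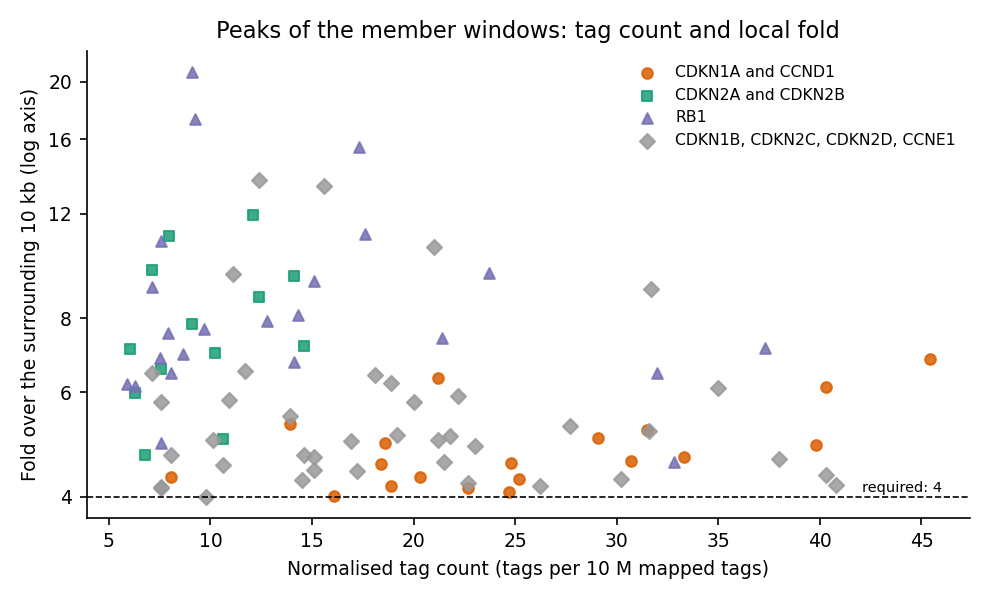
Fold of each peak over the surrounding 10 kb (log axis) against its normalised tag count, 1 point per peak value and library, coloured by gene window. The dashed line is the fold of 4 that a peak had to reach; the CDKN1A and CCND1 points lie low and to the right, and those of CDKN2A, CDKN2B and RB1 lie higher at low tag counts.

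The called signal of a window was summed in each library. In all 9 windows both treated sums lay above both control sums, against 78.1% of the 17359 coding genes with a region. For CDKN1A the sums were 0 and 13.9 in the controls and 93.3 and 20.3 under tazemetostat. For CDKN1B they were 16.9 and 25.6 against 62.5 and 78.7. For CDKN2A they were 0 and 13.4 against 51.4 and 19.2. For these genes the smaller treated sum was close to Ctrl 2 at CDKN1A and CDKN2A and far above it at CDKN1B. For CDKN2B the sums were 0 and 14.3 against 41.8 and 23.0. For CDKN2C they were 11.1 and 62.6 against 136.4 and 102.4. For CDKN2D they were 19.2 and 27.7 against 54.9 and 38.0. The spread between the controls was largest at CDKN2C among these inhibitors. For CCND1 the sums were 29.1 and 81.1 against 161.8 and 83.5, with Taze 2 and Ctrl 2 nearly equal. For CCNE1 they were 14.5 and 27.3 against 48.9 and 41.8. For RB1 they were 22.7 and 59.6 against 117.4 and 133.3.

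Over the 9 windows together the sum was 113.5 and 319.2 in the controls and 743.2 and 533.3 under tazemetostat. The means were 216 ± 145 and 638 ± 148 (SD, n = 2 each), a difference of 422 and a ratio of 2.95. The same ratio over all peaks of the libraries was 2.13. The ratio moved most with the controls: it was 2.0 without Ctrl 1 and 5.63 without Ctrl 2, where that over all peaks was 1.87 and 2.47. Without Taze 1 it was 2.47 and without Taze 2 it was 3.44, where that over all peaks was 1.96 and 2.3. With peaks of at least 8 times the local density the difference was 47. A two-sided exact permutation test over the libraries gave p = 0.3333, the smallest possible with 2 against 2. Per 1 M tags in peaks of each library, the sums were 262.6 and 561.2 against 645.9 and 543.8, and the groups overlapped (difference 183, exact permutation p = 0.667). The sums follow how much was called. At RB1 the peaks covered 760 and 2211 bp in the controls and 3485 and 4417 bp under tazemetostat, and the tag count per kb of peak was 29.8 and 27.0 against 33.7 and 30.2. At CDKN1A they covered 378 bp in Ctrl 2 and 1594 and 300 bp under tazemetostat, and the tag count per kb was 36.8 against 58.5 and 67.7. At CCND1 the tag count per kb was 58.7 and 67.3 against 59.2 and 59.5, and the groups overlapped.

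**Figure D4:**
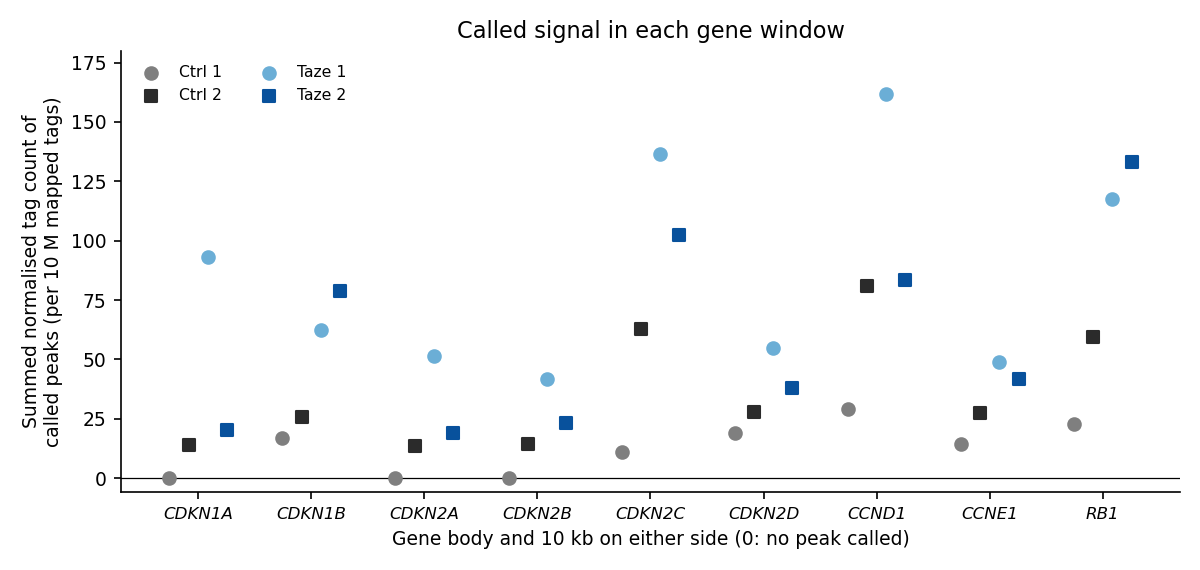
Summed normalised tag count (tags per 10 M mapped tags) of the called peaks in each gene window, 1 point per library, where 0 means that no peak was called. Both treated points lie above both control points in every window, by little at CDKN1A, CDKN2A and CCND1, where Taze 2 had 20.3, 19.2 and 83.5.

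Tag counts were then tested at regions with exactly 1 peak in each library. There were 15061 such regions, 6 of them at these genes, and none at CDKN1A, CDKN2A or CDKN2B. limma was fitted to log2(normalised tag count + 1) over all 15061, on which changes of low values appear smaller than they are. Both regions of the RB1 window rose. The LPAR6 start in the RB1 intron rose by 1.18 in log2 units (SE 0.3, limma adjusted p = 0.0124), or 2.27-fold in normalised tag count + 1. The RCBTB2 start beyond the canonical end rose by 0.92 (SE 0.3, limma adjusted p = 0.0258), or 1.89-fold on the same scale. The RB1 start itself could not enter, since Ctrl 1 had no peak there.

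The other 4 regions did not pass the threshold of 0.05. The CDKN2D start differed by 0.74 (SE 0.3, limma adjusted p = 0.0532), the CDKN1B start by 0.61 (SE 0.31, limma adjusted p = 0.0941) and the CDKN2C start by 0.27 (SE 0.3, limma adjusted p = 0.419). The region within LTO1 near CCND1 differed by 0.05 (SE 0.31, limma adjusted p = 0.879). Thus 2 of 6 regions were higher under tazemetostat, where 42.6% of all tested regions were, and 0 were lower, where 0.239% were. At an unadjusted p under 0.05 in limma, 3 were higher and 0 lower, against 58.1% and 0.438% of all tested regions. The median difference was 0.68 over the 6 regions and 0.70 over all tested regions. Of all tested regions, 92.2% had a smaller difference than the LPAR6 start and 74.7% a smaller one than the RCBTB2 start, but 39.2% a smaller one than the CDKN1B start and 11.4% a smaller one than the CDKN2C start.

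**Figure D5:**
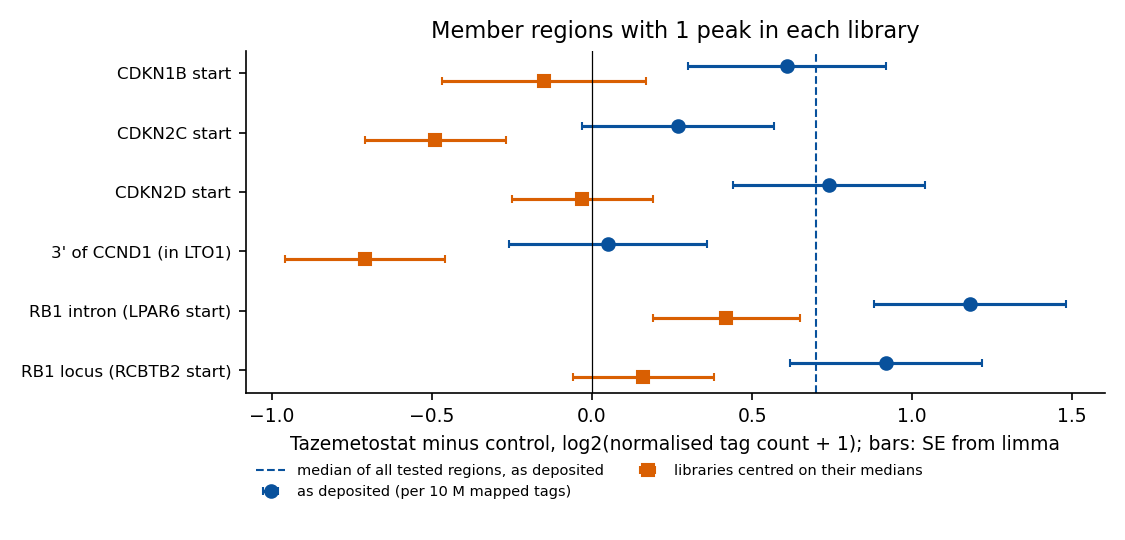
Difference between tazemetostat and control in log2(normalised tag count + 1) with its SE from limma, for the 6 regions with 1 peak in each library. Circles are values as deposited and squares are values after each library was centred on its median; the dashed line is the median of all tested regions, 0.70. After centring, the regions at CDKN1B, CDKN2C, CDKN2D and CCND1 lie below 0.

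These differences are relative to mapped tags. When each library was centred on its median, the differences were 0.42 at the LPAR6 start (limma adjusted p = 0.588) and 0.16 at the RCBTB2 start (limma adjusted p = 0.848), and those at CDKN1B, CDKN2C, CDKN2D and CCND1 turned negative, from -0.03 to -0.71. None of the 6 passed in that limma fit, and before adjustment 1 was lower and 0 higher at p under 0.05, against 7.53% and 2.91% of all tested regions. Per kb of peak, the LPAR6 and RCBTB2 starts had limma adjusted p = 0.0679 and 0.241. Without Taze 1 the differences were 0.97 and 0.83 (limma adjusted p = 0.227 and 0.247) and without Taze 2 they were 1.40 and 1.01 (limma adjusted p = 0.0955 and 0.11), and none of the 15061 regions passed in either fit. Without Ctrl 1 the RCBTB2 start differed by 0.68 (limma adjusted p = 0.114). The CDKN1B start passed without Ctrl 1 (0.91, limma adjusted p = 0.0406), but not in the fit without it on regions chosen anew described next (0.91, limma adjusted p = 0.0719). The CDKN2D start differed by 0.99 without Ctrl 2 and by 0.48 without Ctrl 1, each with a single control left. Among the fits on all libraries, it passed with a pseudocount of 5 (0.65, limma adjusted p = 0.039), where 7360 of all 15061 tested regions were higher. It also passed at a mean tag count of at least 20 (0.74, limma adjusted p = 0.0438), where 5256 of 9711 were.

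Since Ctrl 1 lacked a peak at 6 of the 9 starts, the fit was repeated without it on the 23242 regions with exactly 1 peak in each of the other libraries, a choice made after seeing the data. The lone control is then assumed to vary as the treated libraries do. Of 15 regions at the 9 genes, 5 rose, where 13.4% of all tested regions did. The region past the 3′ end of CDKN2C, chr1:50976838-50978522, rose by 1.68 (SE 0.37, limma adjusted p = 0.000599), more than 99.2% of tested regions. The RB1 start rose by 1.22 (SE 0.37, limma adjusted p = 0.0157) and the CCNE1 start by 1.07 (SE 0.37, limma adjusted p = 0.0347). The LPAR6 start and chr13:48542522-48543105 in the RB1 window rose as well, by 1.05 and 1.14. At each of these regions the peak was longer in both treated libraries than in Ctrl 2. It spanned 387 bp in Ctrl 2 against 1156 and 982 bp at the CDKN2C region. At the RB1 start it spanned 389 bp against 477 and 1046 bp, and at the CCNE1 start 390 bp against 731 and 768 bp. No such fit was made per kb of peak, and the part of peak length in these rises was not tested. The CDKN2B start differed by 0.12 (SE 0.37, limma adjusted p = 0.801). After centring, 0 of the 15 passed in limma, with 1 higher at an unadjusted p under 0.05, against 0 and 4.66% of the 23242.

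The sequences of the 42 regions were compared with all regions over their central 300 bases. At least 20 CpG were present in 19 of 42, against 14.4% of all regions and 31.1% of shared regions. Among the 8 tazemetostat-only regions 4 had as many, at CDKN2A (21 and 22), CDKN2B (38) and CCND1 (27), against 10.7% of all tazemetostat-only regions. Those at CDKN1A, CDKN1B, CDKN2C and RB1 had 2 to 7. The SP/KLF letters GGGCGG, on either strand, occurred in 17 of 42 regions, against 21.5% of all, and in 1 of the 8 tazemetostat-only regions (CDKN2B), against 19.0%. In RefSeq promoters, over the 250 bases before the start, the share was 42.6%. The E2F letters TTTCCCGC or TTTGGCGC occurred in 2 of the 42, the starts of CCND1 and RB1, against 1.17% of all regions. The E-box CACGTG occurred in 4 of the 42, against 5.35%, and the AP-1 letters TGANTCA in 2, against 11.4%. The HNF4 letters CAAAGTNCA and the FOXA letters TGTTTAC occurred in 0 of the 42, against 4.18 and 8.24%, and the CTCF motif in 1 region, upstream of the canonical CDKN2C start, against 5.17%. A match is a run of letters and not evidence of binding.

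Another 24 genes of G1 control, among them E2F and DP factors, other cyclins and their kinases, p107, p130, p53, MDM2 and replication licensing genes, were read in the same way. Of these, 8 had a tazemetostat-only region (CCNA2, CCND3, CDK2, E2F2, FBXW7, MDM2, TFDP1 and TFDP2), or 33.3%, near the background of 32.5%, and 0 had a control-only region. The start was called in all 4 libraries for 12 of the 24 and in none for 7, against 30.0 and 49.9% of all coding genes. Each of the 9 genes had a called start in at least 1 library. Of 26 regions tested in limma, 12 were higher and 0 lower under tazemetostat, against 42.6 and 0.239% of all tested regions. The median difference was 0.74, beside 0.68 at the 9 genes.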

How the data were processed

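The 4 ATAC-seq libraries were grouped and numbered by their sample titles. According to the submitters' processing notes and the study's methods, Trim Galore 0.6.6, Bowtie2 2.3.5.1 (hg38) and HOMER 4.11.1 were used, and the authors called peaks in each library without pooling. The headers show 300 bp peaks stitched into regions, a fold of 4.0 and a p-value of 0.0001 against the surrounding 10 kb, and a false discovery rate of 0.001, stricter than in the methods. Any shift of tags for the transposase is not given in the sources used here.

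Of the deposited columns, the normalised tag count (a signal, in tags per 10 M mapped tags) was analysed. The deposited ratio, the fold over the local region, served for description and as an alternative filter. The deposited score, p-value and clonal fold were not used. Depth was 17.2 to 26.6 M mapped tags per library. Whole tags (within 0.25 in 100% of peaks) were computed only to give the tags behind a value.

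Peaks on primary chromosomes were joined over 1 bp and assigned to GENCODE release 44 gene bodies with 10 kb on either side. Regions with 1 peak in each library were fitted with limma 3.58.1 in R 4.3.3 on log2(normalised tag count + 1), with no block and Benjamini-Hochberg adjustment over all 15061 regions. Window sums were set against each other by exact permutation, two-sided. Joining and the limma fit were tested on simulated data. Alternatives were median centring, tag count per kb of peak, a pseudocount of 5, a mean tag count of at least 20, an overlap of 50%, a local fold of at least 8, an equal number of 26133 peaks per library, windows of 2 and 50 kb, a replicate block and leaving out each library. Named were the regions at a transcription start, those called in both libraries of 1 group alone and those tested in limma, and the others more briefly. A further marker is not reported here. The rule for the 9 genes uses no measured value, but the genes, lists and motifs were chosen with earlier results of these data known.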

Additional observations from a re-analysis of the deposited data

How the results depend on the processing

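The count of the 9 genes with a tazemetostat-only region moved from 7 to 2 with a local fold of at least 8 and to 3 with an equal number of peaks, and was 7 to 8 when 1 library was left out. The share of all coding genes is not given here for these settings. The count of genes with a control-only region moved from 0 to 1 in windows of 50 kb (CCND1) and was 0 to 1 when 1 library was left out (RB1 without Ctrl 1). The difference between groups in the summed normalised tag count, 422, was 317 to 527 when 1 library was left out, 47 with a local fold of at least 8, 183 as a share of the tags in peaks, 299 with an equal number of peaks, and 318 and 604 in windows of 2 and 50 kb. Over all tested regions, 0 of 15061 were higher in limma with median centring and 5055 of 15061 with tag counts per kb of peak. With a local fold of at least 8, 1320 of 2324 were. At the 9 genes, the count of regions higher in limma moved from 2 to 0 with median centring and with tag counts per kb of peak, and to 1 of the 1 still tested with a local fold of at least 8. It was 0 to 3 when 1 library was left out, with 0 without either tazemetostat library, where 0 of all 15061 regions passed in limma (3165 and 5862 higher and 38 and 30 lower at an unadjusted p under 0.05). In the fit without Ctrl 1 on regions chosen anew it was 5, and 0 with median centring as well. The count of regions lower in limma was 0 to 0 when 1 library was left out. Each fit that left out 1 library had a single library in 1 group, so its count of calls cannot be weighed. The median difference over the 6 regions was 0.73 without Ctrl 2, against 0.8 over all tested regions. Without Ctrl 1 it was 0.58 for both. Without Taze 1 it was 0.66 against 0.62, and without Taze 2 it was 0.69 against 0.8. Median centring reversed the differences at CDKN1B (-0.15), CDKN2C (-0.49), CDKN2D (-0.03) and CCND1 (-0.71). It subtracts the median log2 value of each library, which was 4.06 and 4.37 in the controls and 5.08 and 4.89 under tazemetostat. Leaving out Taze 1 reversed the difference at CCND1, which was -0.28 to 0.38 when 1 library was left out. The cause of the other changes was not tested. Of 53 alternative values of counts and sums, 42 stayed within 1.5 times the count or, for sums, kept the direction without passing the threshold, which the design cannot pass. They include every alternative for regions lower in limma and most for genes with a control-only region, where 0 stayed 0. Such calls were rare over all tested regions (0.239%) and all coding genes (1.34%), so these values say little about stability. These 42 do not always rest on the same regions: the 2 called without Ctrl 1 were the CDKN1B start and the LPAR6 start, and the 2 at a mean tag count of at least 20 were the CDKN2D start and the RCBTB2 start. Of 58 values of single regions, 40 kept direction and side of the threshold, 9 lost the threshold and 4 gained it.

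With the replicate number as a block (replicate block), 2 regions at these genes were higher in limma, as without it, and the counts over all tested regions went from 6413 higher and 36 lower to 4938 and 27. The numbers were not taken to pair the samples: the correlation between the replicate differences of the groups was 0.00063 over 15061 regions. The planned edgeR and DESeq2 alternatives were not run, because the rounded deposited values did not pass as exact multiples of 1 tag. Tag counts of 13 to 107 limit the precision of each value, and with 2 libraries per group the exact test cannot go below 0.3333.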
